A study of Mus musculus with 2 samples.

Results

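The genes described here are the ligands and receptors of the 4 classical axon guidance systems: semaphorins with plexins and neuropilins, ephrins with Eph receptors, Slits with Robo receptors, and netrin 1 with DCC and the Unc5 receptors. They were taken by symbol, as every gene whose name begins with Sema, Plxn, Epha, Ephb, Efna, Efnb, Slit or Robo followed by a member number or letter, together with Nrp1, Nrp2, Ntn1, Dcc and Unc5a to Unc5d. This gave 69 of the 28692 genes measured, of which 66 are protein coding and 3 are antisense RNAs of Plxna4 (Plxna4os1, Plxna4os2 and Plxna4os3) that the symbol rule also takes in. No measured value enters this rule.

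Single cells were profiled by droplet sequencing of transcript 3′ ends from the habenula of adult male C57BL/6 mice aged 50 to 55 days. There were 2 libraries, each made from tissue punches pooled over 4 wild-type mice. The mice of both groups had been handled for 5 min per day on 7 days. Control mice came straight from the home cage, whereas foot shock mice had also been placed in the shock chamber for 10 min per day on 7 days and then received 30 shocks of 0.3 mA and 1 s, on average 116 s apart, over 60 min. The tissue of both groups was kept in blockers of transcription, translation and firing from perfusion onwards. With 1 library per group there is no replicate check and no test, so chamber exposure, shock and library cannot be told apart, and every interval below covers counting error only.

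The control library held 23095501 unique molecular identifiers (UMIs, one per captured transcript) and the foot shock library 22189951, of which 4880 and 4771 cells were kept with medians of 2416.5 and 2698 UMIs. Among the barcodes of kept cells, 32 occurred in both libraries. The foot shock library stood apart in holding 503 keratin-expressing epithelial cells, of which the control library held 0. Cells were clustered without the guidance genes and named from marker genes. Levels are CPM, a gene's UMIs for every 1000000 UMIs of the cell class in the same library. Markers of the medial habenula (MHb, the cholinergic and tachykinin part) summed to 2054 and 2129 CPM in MHb-like neurons, against 72.0 and 97.5 CPM in neurons like those of the lateral habenula (LHb). The 6 LHb markers summed to 2175 and 2276 CPM in LHb-like neurons and 337 and 374 CPM in MHb-like neurons, in control and foot shock respectively, the order used for all paired values below. They were nearly as high in thalamus-like neurons (1865 and 2061 CPM) and in other neurons (2050 and 2128 CPM). Other neurons came from clusters with LHb markers but fell below the Pou4f1 minimum for a habenula name. Pou4f1, which habenula names also required, was at 505 and 454 CPM in LHb-like neurons. It was at 9.07 and 11.5 CPM in thalamus-like neurons and 33.0 and 42.6 CPM in other neurons.

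Guidance ligands steer growing axons by attracting or repelling the growth cone through receptors on its surface. Secreted semaphorins bind neuropilins, which signal through plexins, whereas membrane-bound semaphorins mostly bind plexins directly. Ephrins and Eph receptors signal in both directions between touching cells, Slits repel through Robo receptors, and netrin 1 attracts through DCC and repels through Unc5. In the habenula the medial and lateral parts send their axons through the fasciculus retroflexus to different midbrain targets, and many of these genes remain active in adult neurons, glia and vessels.

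To show the sequence before members that differ most between the medial and the lateral neurons, the 250 bases upstream of the RefSeq start site are printed for 2 members in each direction. By the smaller of their control and foot shock ratios, these differed most among the members with a single start site in the promoter table. The build is GRCm38.p6, the strand is the gene's own, and capitals mark every CG dinucleotide. The windows lie at chr4:136956817-136957066 on the minus strand for Epha8, chr5:14025026-14025275 on the plus strand for Sema3e, chr1:77515089-77515338 on the minus strand for Epha4, and chr8:8661243-8661492 on the minus strand for Efnb2. Epha8 and Sema3e were higher in MHb-like neurons, and Epha4 and Efnb2 in LHb-like neurons.
Epha8: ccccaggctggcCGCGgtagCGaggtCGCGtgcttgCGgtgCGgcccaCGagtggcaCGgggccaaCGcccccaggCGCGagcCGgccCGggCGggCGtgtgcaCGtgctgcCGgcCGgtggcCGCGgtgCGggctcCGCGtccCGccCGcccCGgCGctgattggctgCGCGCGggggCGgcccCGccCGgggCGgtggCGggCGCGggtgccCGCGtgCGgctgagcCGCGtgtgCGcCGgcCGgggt
Sema3e: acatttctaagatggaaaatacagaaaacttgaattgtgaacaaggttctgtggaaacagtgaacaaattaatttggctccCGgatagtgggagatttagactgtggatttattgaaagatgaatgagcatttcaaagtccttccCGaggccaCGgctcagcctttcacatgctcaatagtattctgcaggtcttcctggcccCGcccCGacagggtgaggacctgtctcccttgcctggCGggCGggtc
Epha4: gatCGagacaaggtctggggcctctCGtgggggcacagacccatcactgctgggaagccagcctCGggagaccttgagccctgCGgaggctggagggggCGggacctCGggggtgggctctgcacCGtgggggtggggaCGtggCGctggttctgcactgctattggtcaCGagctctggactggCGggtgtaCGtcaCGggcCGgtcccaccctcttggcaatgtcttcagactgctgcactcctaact
Efnb2: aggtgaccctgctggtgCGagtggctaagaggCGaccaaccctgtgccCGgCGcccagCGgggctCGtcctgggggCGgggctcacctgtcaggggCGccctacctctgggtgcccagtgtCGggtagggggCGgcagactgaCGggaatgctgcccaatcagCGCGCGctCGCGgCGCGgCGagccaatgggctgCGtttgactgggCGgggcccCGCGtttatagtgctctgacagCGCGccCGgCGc
The windows of both gene pairs differed within the pair. Epha8 had 46 CG dinucleotides and 84% G and C, against 7 and 48% for Sema3e. Efnb2 had 27 and 72%, against 14 and 66% for Epha4.

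Promoter windows were found for 56 of the 69 members, 72 windows in all, with none for Unc5d or Ntn1. By G and C content over 50% and a CG frequency over 0.6 of that from base composition, 51.4% of the members' windows were CpG-rich, against 41.5% of the windows of protein-coding genes. The homeodomain core TAATTA, read on both strands, occurred in 4.17% of the members' windows and in 4.31% of those of protein-coding genes. The longer motif ATAATTAAT, which contains TAATTA, bound by Pou4f1-type factors, was in 0 of the 72 windows and in 0.221% of those of protein-coding genes. The TAATTA match among MHb-high members was in the window of Robo3. These matches describe letters only.

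Of the 69 members, 60 had at least 50 UMIs over all named cell classes, 7 had fewer and 2 had none. The 7 sparse members were Ephb3 (49 UMIs), Sema3a (46), Efna4 (44), Ephb4 (40), Robo4 (32), Epha2 (21) and Plxna4os1 (19). Plxna4os2 and Plxna4os3 were at 0, which allows up to 0.597 CPM in control MHb-like neurons. Of the 60, 45 had the same highest class in both libraries: 10 in thalamus-like neurons, 9 in committed oligodendrocyte precursor-like cells, 8 in MHb-like neurons, 8 in endothelial-like cells, 3 in oligodendrocyte precursor-like cells (OPC-like), and 2 each in oligodendrocyte-like cells and other neurons. Sema4b was highest in astrocyte-like cells, Plxnb2 in microglia-like cells and Slit3 in mural-like cells. In the small endothelial-like and mural-like classes some of these ranks rest on a few UMIs. LHb-like neurons were the highest class of 0 of the 60 in both libraries.

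**Figure D1:**
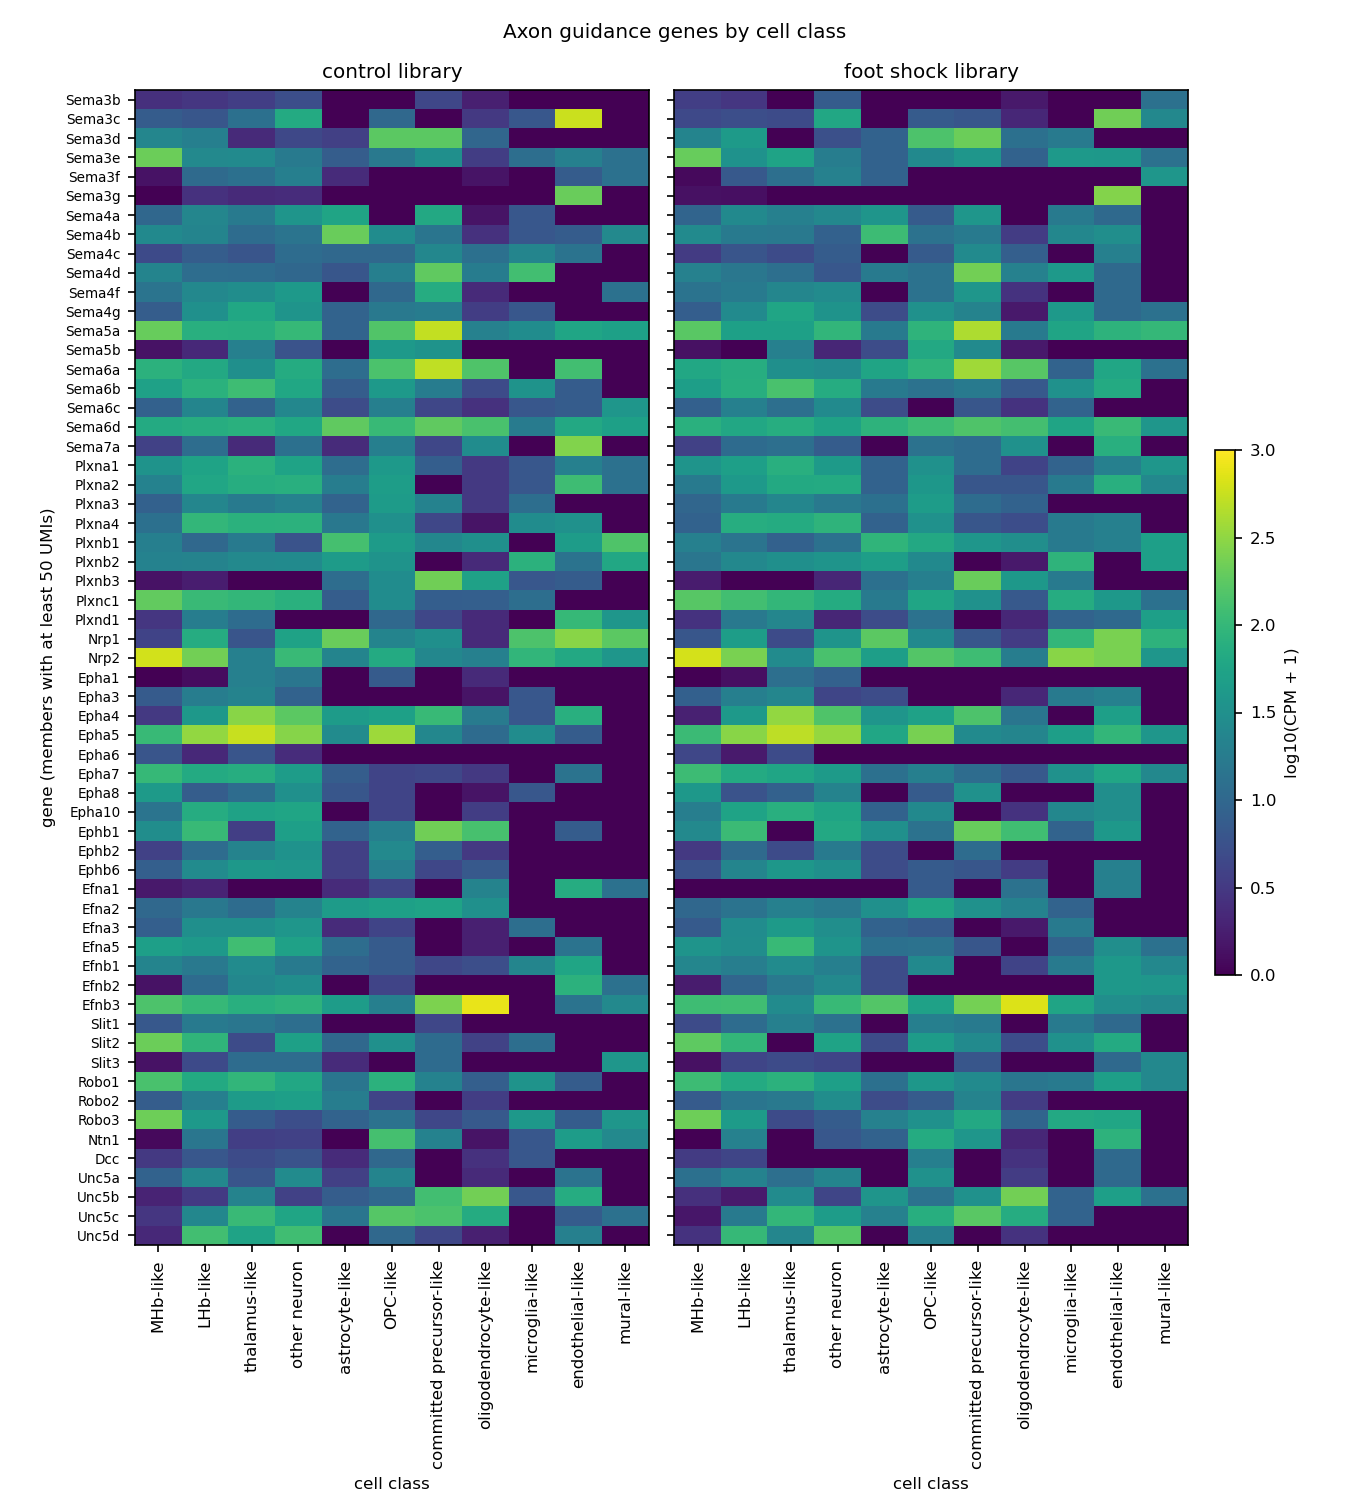
Levels of the 60 members with at least 50 UMIs in 11 cell classes, control library left and foot shock library right. Each row is a gene, each column a class, and the colour is log10 of CPM + 1. Nrp2, Sema3e and Robo3 are brightest in MHb-like neurons, Efnb3 in oligodendrocyte-like cells and Sema3c in endothelial-like cells in both libraries.

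The first comparison asks which guidance genes separate the medial from the lateral habenula in the adult. A member was called when its level differed at least 2-fold in the same direction in both libraries, among members with at least 50 UMIs over both classes. Of the 52 members that passed this minimum, 29 were called, 55.8% of them, against 12% of the genes that were neither clustering features nor class markers. LHb-like neurons had the higher level for 23 of them, against a background of 7.80%, and MHb-like neurons for 6, against 4.25%. Members were kept out of the clustering features however variable, while this background leaves out the variable genes used as features. The shares are therefore not on like terms. With the features included, 1051 of 11499 tested genes other than class markers were higher in LHb-like and 530 in MHb-like neurons. The median log2 ratio of MHb-like over LHb-like was -0.96 over the 52 members and -0.14 over all tested genes. All 29 kept their interval on the same side of 1 in both libraries. Scaling by TMM factors instead of class totals shifted every log2 ratio by 0.16 towards MHb-like neurons and gave 22 and 7 calls.

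Of the 5 netrin system members tested, 3 were called for LHb-like neurons and 0 for MHb-like neurons, and the sixth, Unc5b, had too few UMIs to be tested. Unc5d, a repulsive netrin receptor, was at 122 and 101 CPM in LHb-like neurons and at 1.19 and 1.77 CPM in MHb-like neurons. This was a 103-fold difference in control (95% interval 46.8 to 281) and a 57.4-fold difference in foot shock (30.8 to 121), the largest ratio of any tested member in control. Unc5c stood at 23.7 and 16.2 CPM against 1.99 and 0.530 CPM, 11.9-fold (6.19 to 25.6) and 30.7-fold (9.90 to 154). The ligand netrin 1 (Ntn1) was counted 58 and 61 times in LHb-like neurons, but 1 and 0 times in MHb-like neurons. Its ratio was 71.1 in control (12.3 to 2855), and in foot shock it was at least 37.4-fold higher in LHb-like neurons, taking 3 counts as the limit for 0. The attractive receptor Dcc was sparse, with 5.61 and 3.25 CPM in LHb-like and 2.19 and 2.30 CPM in MHb-like neurons, and was not called. Unc5a missed the threshold in foot shock, at 24.4 and 20.1 against 7.76 and 11.8 CPM.

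The neuropilins, the binding receptors of secreted semaphorins, were split between the parts. Nrp2 reached 626 and 637 CPM in MHb-like neurons and 231 and 245 CPM in LHb-like neurons, a ratio of 2.71 (2.52 to 2.92) and 2.60 (2.40 to 2.81). Nrp1 was at 71.5 and 45.5 CPM in LHb-like neurons and at 2.99 and 5.30 CPM in MHb-like neurons, which was below its 9.43 and 12.2 CPM in free RNA, measured in barcodes of 10 to 100 UMIs. MHb-like neurons thus had Nrp2 far above free RNA and Nrp1 below it, while LHb-like neurons had both above it. Of the 23 members higher in LHb-like neurons, all 23 were above free RNA there in both libraries, and 13 were below free RNA in MHb-like neurons in both.

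Among the plexins, which transmit semaphorin signals into the cell, 3 of the A and D groups were higher in LHb-like neurons. Plxna4 was at 95.6 and 73.8 CPM against 11.9 and 7.77 CPM, 8.01-fold (6.09 to 10.7) and 9.49-fold (6.85 to 13.4). Plxnd1, the receptor of Sema3e, was at 17.6 and 15.3 CPM against 1.99 and 1.77 CPM, and Plxna2 was 2.86-fold and 2.52-fold higher. Plxnc1, the receptor of Sema7a, was on the medial side without reaching the threshold, at 187 and 163 CPM in MHb-like and 107 and 122 CPM in LHb-like neurons. Plxna3 and Plxnb1 passed 2-fold in control alone, in opposite directions.

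Secreted semaphorins also differed between the parts. Sema3e was at 212 and 197 CPM in MHb-like neurons and 24.9 and 32.8 CPM in LHb-like neurons, 8.52-fold (6.95 to 10.5) and 6.01-fold (4.90 to 7.45). Sema3e and its receptor Plxnd1 thus lay on opposite sides. Sema3f, a ligand of Nrp2, was at 10.0 and 5.85 CPM in LHb-like neurons, with 2 and 1 UMIs in MHb-like neurons, ratios of 25.1 (6.52 to 214) and 33.1 (5.23 to 1380). Sema3d and Sema3c were not called, and Sema3a, Sema3b and Sema3g had too few UMIs in the 2 classes to be tested. Of the membrane-bound semaphorins, Sema5a was higher in MHb-like neurons at 198 and 168 CPM against 77.1 and 49.7 CPM. Sema4a, Sema4g, Sema6c and Sema7a were 2.50-fold to 4.72-fold higher in LHb-like neurons. Sema4d was 2.02-fold higher in MHb-like neurons in control and 1.38-fold in foot shock, so it was not called.

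Eph receptors were mostly lateral, with 7 of the 10 tested called for LHb-like and 2 for MHb-like neurons. Epha4, which binds both ephrin classes, was at 38.5 and 39.3 CPM against 2.19 and 0.883 CPM, 17.6-fold (9.57 to 36.0) and 44.5-fold (18.6 to 140). Epha5 was at 323 and 289 CPM against 105 and 110 CPM, and Ephb1 at 103 and 111 CPM against 28.9 and 24.7 CPM. Epha10, which lacks kinase activity, Epha3, Ephb2 and Ephb6, another receptor without kinase activity, were 2.60-fold to 5.32-fold higher in LHb-like neurons. On the medial side, Epha8 was at 42.4 and 38.7 CPM against 6.59 and 4.87 CPM, 6.44-fold (4.30 to 10.0) and 7.94-fold (4.71 to 14.4). Epha6 was 4.24-fold and 5.16-fold higher from 26 and 19 UMIs. Epha7 was 1.49-fold and 1.70-fold higher in MHb-like neurons, which did not pass the threshold.

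Ephrins, the ligands of these receptors, followed with 2 of 6 tested members called, both lateral. Efnb2 had 42 and 26 UMIs in LHb-like neurons and 2 and 4 in MHb-like neurons, ratios of 25.7 (6.69 to 219) and 12 (4.15 to 47.1). Efna3 was at 30.0 and 27.6 CPM against 7.17 and 6.01 CPM. Efnb3 had no common direction, at 145 and 116 CPM in MHb-like and 101 and 120 CPM in LHb-like neurons.

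In the Slit and Robo system, Robo3, a receptor that commissural axons use while crossing the midline, stood out on the medial side. It was at 220 and 218 CPM in MHb-like neurons and 40.7 and 43.2 CPM in LHb-like neurons, a ratio of 5.39 (4.58 to 6.38) and 5.04 (4.21 to 6.07), with 40.5 and 51.8 CPM in free RNA. Robo2 was on the lateral side at 18.5 and 13.6 CPM against 6.57 and 6.18 CPM, and so was Slit1 at 16.3 and 10.4 CPM against 5.77 and 3.89 CPM. The other tested members of this system, Slit2 and Robo1, were not called, at 2.35-fold and 1.90-fold higher in MHb-like neurons for Slit2 and 2.07-fold and 1.71-fold for Robo1. By the smaller of their ratios, Slit2 and Plxna3 (3.03-fold and 1.84-fold higher in LHb-like neurons) were the members nearest to the threshold on its outer side, and Robo2 lay just inside it at 2.82-fold and 2.21-fold.

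**Figure D2:**
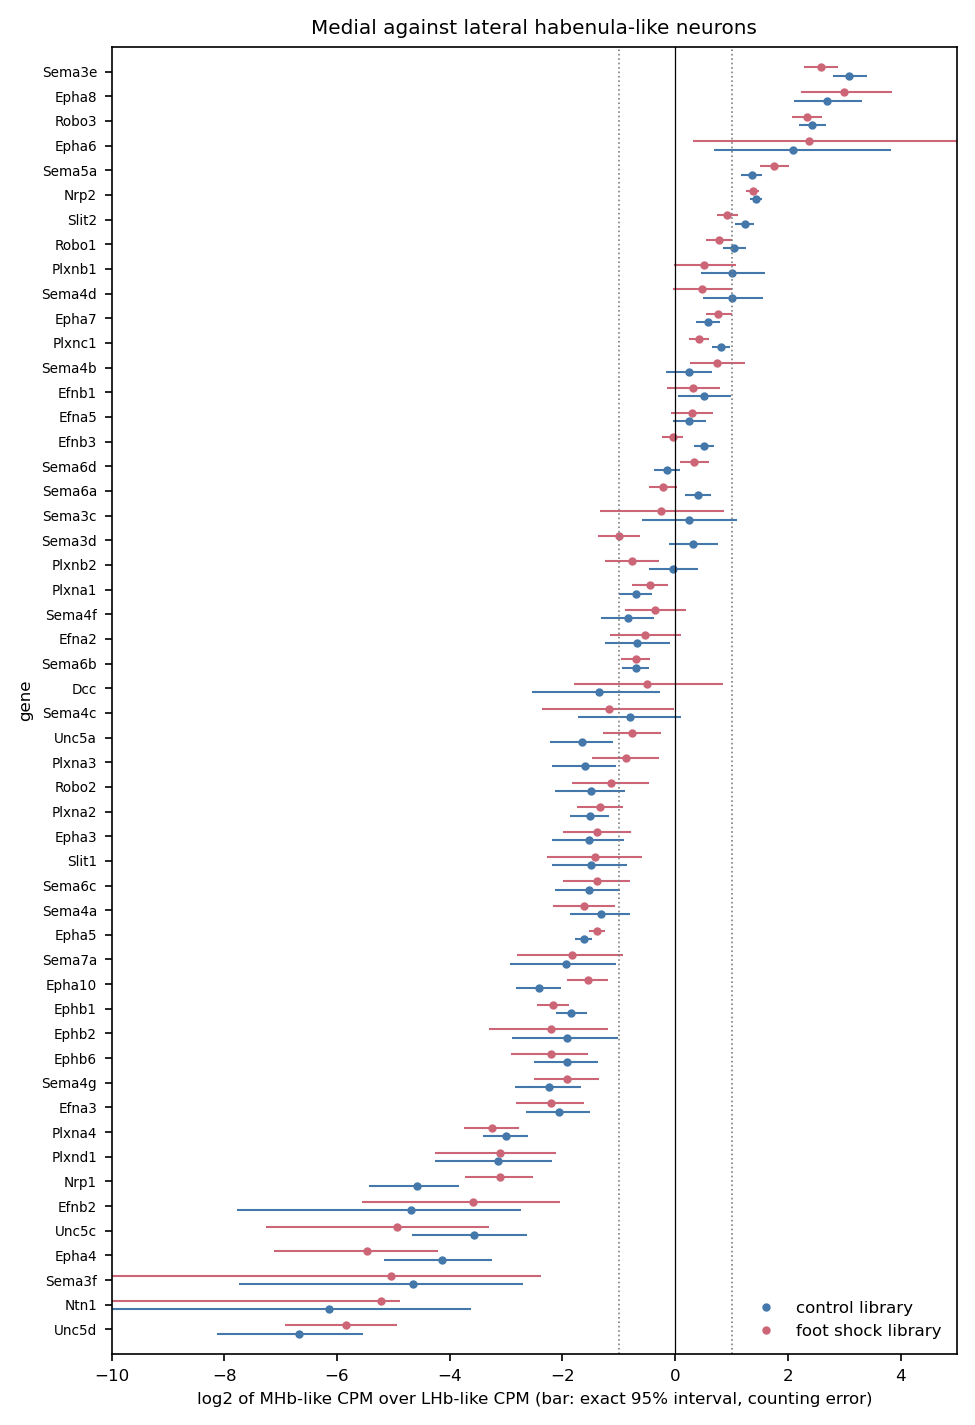
Log2 ratio of the CPM in MHb-like over LHb-like neurons for the 52 tested members, ordered by their mean. Blue points are the control library and red points the foot shock library, bars are exact 95% intervals for counting error, dotted lines mark 2-fold, and intervals reaching past the axis are clipped at its edges. The Ntn1 point in foot shock is a bound against 3 counts. Sema3e, Epha8 and Robo3 lie at the top, and Ntn1 and Unc5d at the bottom, in both libraries.

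A fixed list of 101 other guidance genes (guidance adhesion molecules, morphogens, co-receptors and intracellular partners) gave 29 calls among 83 tested, 25 higher in LHb-like and 4 higher in MHb-like neurons. Of 11499 tested genes other than class markers, 1051 were higher in LHb-like and 530 in MHb-like neurons. The medial calls of the list were thus near the share over all genes. Its median log2 ratio was -0.42. By the smaller of their ratios in the libraries, the lateral genes furthest from 1 were the contactin Cntn6 (49.0-fold and 30.7-fold), Flrt1, an Unc5 ligand of the synapse (46.6-fold and 25.8-fold), the morphogen Shh (55.1-fold and 23.9-fold), the adhesion molecule Chl1 (21.1-fold and 24.6-fold) and Lingo1, a partner of the Nogo receptor (20.0-fold and 25.5-fold). Cntn6, Flrt1 and Shh rested on 1 to 3 UMIs in MHb-like neurons, with intervals of 13.1 to 412 and 9.90 to 154 for Cntn6, 12.5 to 391 and 8.23 to 130 for Flrt1 and 9.40 to 2226 and 5.99 to 208 for Shh. The 4 medial genes were Bmp7 (4.95-fold and 5.08-fold), the guanine nucleotide exchange factor Vav3 (4.14-fold and 3.37-fold), the Nogo receptor Rtn4r (3.67-fold and 2.97-fold) and the adaptor Nck2 (2.18-fold and 2.87-fold).

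Within LHb-like neurons, 7 subclusters with at least 50 cells in each library were compared, again formed without the guidance genes. A member was called when the same subcluster exceeded the rest of the class at least 2-fold in both libraries. Of 47 tested members, 22 were called, 46.8% against 7.03% of genes that were neither features nor markers. This background leaves out the variable genes used as features, while members stay in however variable, so the shares are not on like terms. A share with the features included was not computed. Subclusters are named here by a number, most with a leading gene beside it. The Megf11 subcluster (LHb 3) was highest for 7 members, subcluster LHb 8 for 4, the Ddc (LHb 5) and Sst (LHb 7) subclusters for 3 each, the Chrm2 (LHb 1) and Peg10 (LHb 4) subclusters for 2 each, and the Pam subcluster (LHb 6) for 1. Pou4f1, the habenula transcription factor, was at 1.22 and 1.35 counts per 10000 in LHb 3 and LHb 8, near the minimum of 1 for a habenula name and below the 3.07 to 9.10 of the other 5. Without these 2 subclusters, 25 members were called between the parts and 15 between the lateral subclusters. Plxna2 then fell short of the 2-fold threshold between the parts, with log2 ratios of -0.89 and -0.91.

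Sema3d, a secreted semaphorin, marked the Sst subcluster LHb 7. It was at 212 and 236 CPM there and at 7.48 and 20.9 CPM in the other LHb-like neurons, a ratio of 28.4 (17.5 to 46.8) and 11.3 (7.88 to 16.2). The neuropilin Nrp1 had 0 UMIs in LHb 7 in control and 3.24 CPM in foot shock, while it was at 68.0 to 96.3 CPM in the other 6 subclusters in control. Efnb3 was also highest in LHb 7, at 226 and 230 CPM against 94.1 and 107 CPM, and so was Efnb1. LHb 7 thus combined 2 B ephrins and Sema3d with little Nrp1.

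The Megf11 subcluster LHb 3 was set off by Sema5a, at 202 and 187 CPM against 34.4 and 28.5 CPM elsewhere in the class, 5.88-fold (4.63 to 7.51) and 6.55-fold (4.71 to 9.12). Epha5 was at 517 and 570 CPM there against 257 and 245 CPM, and Plxna4 at 154 and 148 CPM against 75.6 and 62.3 CPM. Plxna2, Ephb6, Sema7a and Slit1 made up the rest of its 7 members. Of the 4 members highest in LHb 8, Epha4 was at 112 and 98.1 CPM against 33.6 and 35.4 CPM, and the others were Ephb2, Efnb2 and the netrin receptor Unc5a. Efnb2 there rested on 6 and 11 UMIs.

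Plxnc1 was highest in the Peg10 subcluster LHb 4, at 318 and 292 CPM against 72.7 and 89.0 CPM, 4.38-fold (3.60 to 5.32) and 3.28-fold (2.64 to 4.05). The other member highest there was Ntn1, at 30.1 and 46.6 CPM against 11.6 and 14.7 CPM. Plxnd1 and Robo3 were highest in the Chrm2 subcluster LHb 1, Plxnd1 at 42.0 and 32.0 CPM against 7.28 and 6.85 CPM and Robo3 at 79.9 and 65.9 CPM against 24.3 and 31.8 CPM. Robo3 in LHb 1 lay above its level in free RNA in both libraries. The Ddc subcluster LHb 5 was highest for Unc5c (55.4 and 48.3 CPM), Sema6d (140 and 145 CPM) and Epha3 (38.1 and 38.6 CPM). The Pam subcluster LHb 6 had a lower median depth than the others and was highest for Sema4b. For 19 of the 22 members the lower bound of the ratio was above 1 in both libraries, and the exceptions were Efnb1 and Efnb2 in control and Ephb2 in foot shock.

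Within MHb-like neurons, 15 of 39 tested members were called over 5 subclusters, 38.5% against 4.80% of genes that were neither features nor markers. The background again leaves out the variable genes used as features, so these shares are not on like terms either. The Synpr subcluster (MHb 1) was highest for 7 of them. Sema5a was at 428 and 292 CPM there and at 85.6 and 90.5 CPM in the other MHb-like neurons, 5.01-fold (4.36 to 5.76) and 3.23-fold (2.82 to 3.71). Epha8 stood at 82.6 and 68.2 CPM against 22.8 and 20.3 CPM and Epha7 at 170 and 174 CPM against 66.9 and 76.7 CPM. Plxna4, Epha3, Unc5a and Sema3c, all at lower levels in the part as a whole, were also highest in MHb 1.

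The Spon1 subcluster (MHb 2) was highest for Sema3d, Slit2 and Efnb3. Sema3d was at 73.4 and 68.7 CPM there and at 5.38 and 7.94 CPM elsewhere, 13.6-fold (8.36 to 23.3) and 8.66-fold (5.78 to 13.2). Slit2 was at 361 and 320 CPM against 161 and 142 CPM, and Efnb3 at 263 and 256 CPM against 103 and 76.0 CPM. Sema3d and Efnb3 were therefore highest together in 1 subcluster of each part, LHb 7 and MHb 2.

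The Cck subcluster (MHb 4) was highest for Robo2, Plxna2, Ephb1 and Efnb1. Robo2 was at 36.8 and 41.1 CPM there and at 2.27 and 1.01 CPM in the other MHb-like neurons, 16.2-fold (7.40 to 38.1) and 40.6-fold (15.6 to 134). Plxna2 was at 67.1 and 58.9 CPM against 13.6 and 9.33 CPM, and Ephb1 at 81.5 and 65.8 CPM against 21.4 and 18.7 CPM. These 3 genes were all called for LHb-like neurons between the parts, yet in MHb 4 Robo2 and Plxna2 were above their LHb-like level and Ephb1 below it. Sema4b was highest in MHb 3, a subcluster of low depth led by Actb and Pam.

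**Figure D3:**
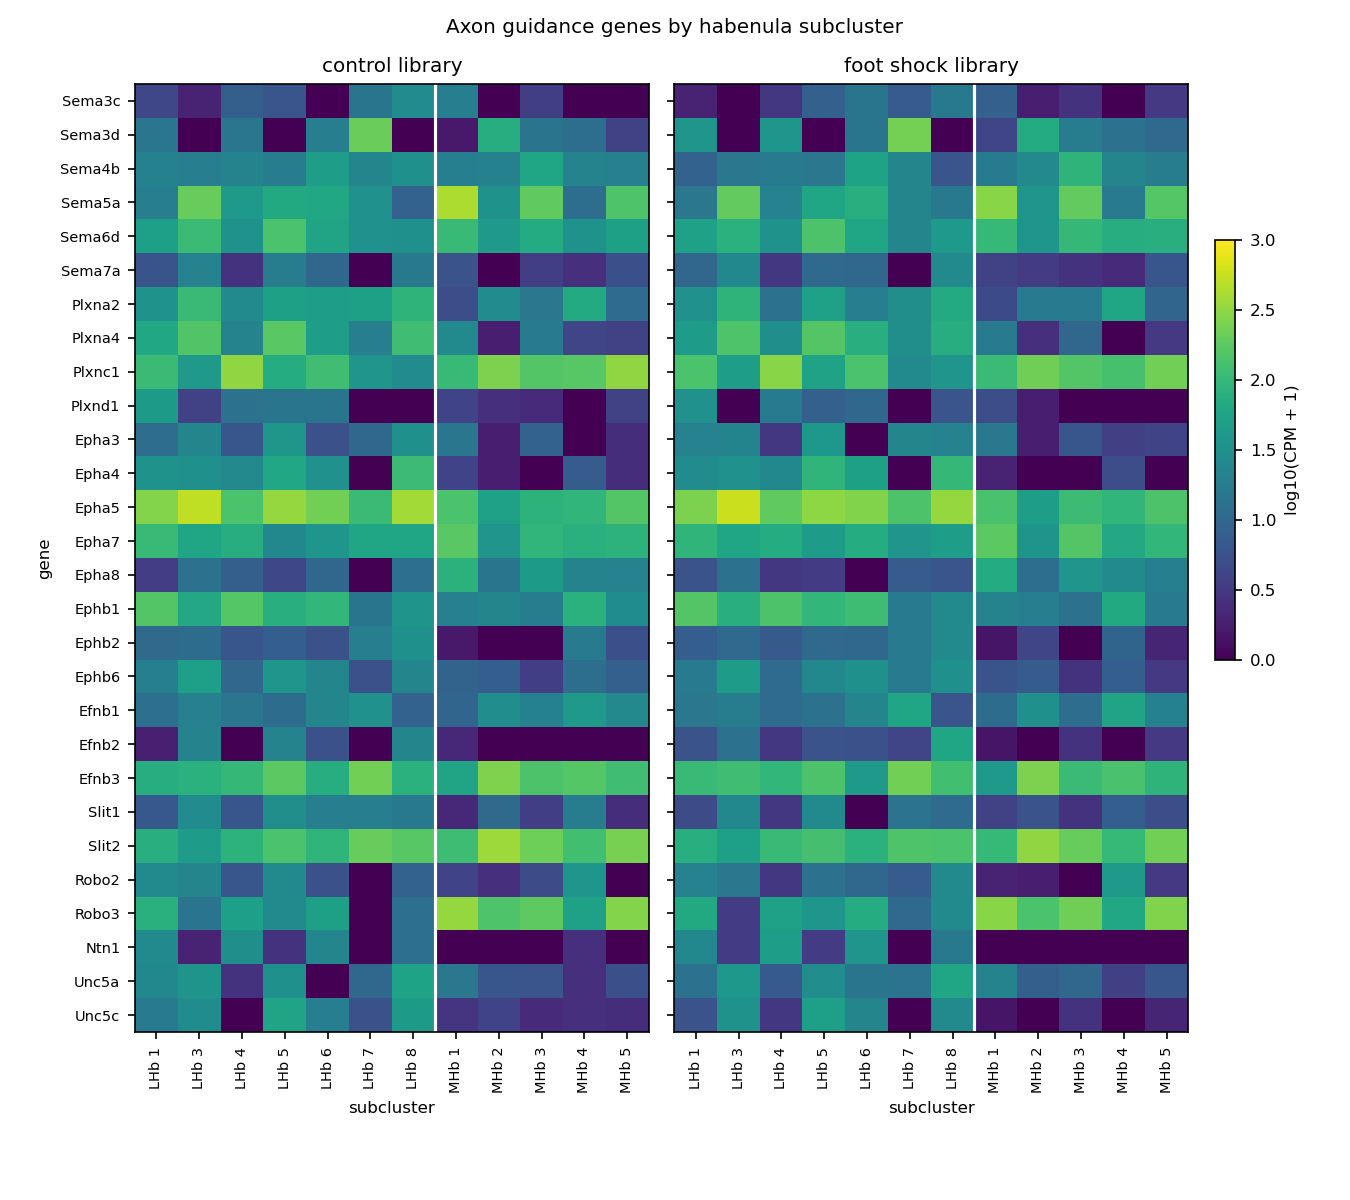
Levels of the 28 members called among the lateral or the medial subclusters, control library left and foot shock library right. Columns are the 7 LHb-like and, right of the white line, the 5 MHb-like subclusters, and the colour is log10 of CPM + 1. Sema3d is bright in LHb 7 and MHb 2, and Sema5a in LHb 3 and MHb 1, in both libraries.

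Beyond the MHb-like and LHb-like classes, thalamus-like neurons (130 and 57 cells) were the highest class for 10 members, 7 of them Eph receptors or ephrins. Epha4 was at 296 and 328 CPM there, against 38.5 and 39.3 CPM in LHb-like neurons. Epha5 was at 564 and 500 CPM and its ligand Efna5 at 118 and 103 CPM, against 48.4 and 34.6 CPM for Efna5 in MHb-like neurons. Sema6b, Plxna1, Sema4g, Ephb6, Epha1, Epha3 and Epha6 made up the rest, with Epha6 at 5.18 CPM in both thalamus-like and MHb-like neurons in control. In foot shock Epha6 was at 3.82 CPM in thalamus-like and 3.36 CPM in MHb-like neurons. The thalamus-like levels of Epha6 in both libraries, and of Epha1 in foot shock, rest on a few UMIs. Other neurons were highest for Robo2 (48.4 and 28.4 CPM) and Ephb2 (33.0 and 16.4 CPM), and shared high Unc5d with LHb-like neurons at 121 and 161 CPM. Of these cells, 233 and 225 were first clustered with LHb-like neurons. They lost that name because their Pou4f1, at 0.441 counts per 10000, was below the minimum of 1.

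In the oligodendrocyte lineage, 14 members had their highest class. The lineage runs from OPC-like cells (Pdgfra, Cspg4) through committed precursor-like cells (Gpr17, Neu4) to oligodendrocyte-like cells (Mog, Mag). Efnb3, an ephrin known as a myelin inhibitor of axon growth, was at 18.6 and 50.6 CPM in OPC-like, 258 and 234 CPM in committed precursor-like and 788 and 691 CPM in oligodendrocyte-like cells. Unc5b, a netrin receptor, was at 226 CPM in oligodendrocyte-like cells in both libraries. Both were at their highest in the most mature class, far above the 60.5 and 65.3 CPM (Efnb3) and 5.55 and 5.70 CPM (Unc5b) in free RNA.

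Committed precursor-like cells (92 and 66 cells) were the highest class for 9 members. Sema5a was at 525 and 425 CPM there, against 152 and 88.5 CPM in OPC-like and 19.8 and 16.0 CPM in oligodendrocyte-like cells. Its receptor Plxnb3 was also highest in this class, with 27.8 and 19.0 CPM in OPC-like, 220 and 207 CPM in committed precursor-like and 50.7 and 39.1 CPM in oligodendrocyte-like cells. Plxnb3 was at most 1.09 CPM in any neuron class, so a semaphorin and its plexin peaked in the same glial stage. Sema6a (515 and 377 CPM), Sema4d (186 and 228 CPM), Ephb1 (220 and 202 CPM), Sema6d, Sema4a, Sema4c and Sema4f were the others. Sema6d in control and Sema4a in both libraries were nearly as high in astrocyte-like cells, at 182 CPM against 183 CPM for Sema6d and at 55.2 and 35.4 CPM against 64.4 and 37.2 CPM for Sema4a.

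OPC-like cells were highest for Dcc (9.28 and 19.0 CPM, from 3 UMIs in each library, with intervals of 1.91 to 27.1 and 3.91 to 55.4 CPM), Sema5b (40.2 and 63.2 CPM) and Plxna3 (43.3 and 44.3 CPM). Sema3d was shared by the precursors, at 176 and 145 CPM in OPC-like and 176 and 212 CPM in committed precursor-like cells, but at 8.86 and 11.9 CPM in oligodendrocyte-like cells. Unc5c had 161 and 75.9 CPM in OPC-like cells and 139 and 170 CPM in committed precursor-like cells. The netrin ligand itself, Ntn1, was at 130 and 69.5 CPM in OPC-like cells from 42 and 11 UMIs. OPC-like cells therefore held both netrin 1 and its receptor Unc5c.

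Astrocyte-like cells were highest for Sema4b (203 and 114 CPM) and high for Nrp1 (205 and 173 CPM), Plxnb1 (128 and 90.5 CPM) and Sema6d. Plxnb2 was highest in microglia-like cells, at 83.3 and 87.2 CPM, where the semaphorin Sema4d, a ligand of B plexins, was at 122 and 39.7 CPM. The antisense RNA Plxna4os1 was at 61.1 and 55.5 CPM in microglia-like cells and at 0 in every neuron class, while Plxna4 itself was at 27.8 and 15.9 CPM in microglia-like cells. Plxna4os1 was thus not found where its sense gene was highest. The use of strand in counting was not given in the sources used here. The effect of the overlap of the 2 genes on their counts was not tested.

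Endothelial-like cells (64 and 44 cells) were highest for Sema3g (204 and 280 CPM), Sema3c (581 and 222 CPM), Nrp1 (293 and 251 CPM), Sema7a (268 and 77.3 CPM), Plxna2 (115 and 77.3 CPM), Efnb1, Efnb2 and Efna1. Sema3g, an endothelial semaphorin, was at most 1.71 CPM in every other class with at least 50 cells in each library. Among the sparse members, the endothelial Robo4 was at 108 and 77.3 CPM and the venous receptor Ephb4 at 63.8 and 19.3 CPM, with Efnb2, its arterial ligand, at 82.9 and 38.7 CPM. Slit3 was highest in mural-like cells at 37.0 and 24.4 CPM, where Plxnd1 was at 37.0 and 48.7 CPM. Mural-like cells held 81080 and 82062 UMIs of all genes, so these levels rest on a few UMIs each. Endothelial-like cells held 156736 and 103459 UMIs, and there the foot shock levels of Efnb2, Efna1 and Ephb4 were as thin. Efnb2 in foot shock was nearly as high in mural-like cells, at 36.6 CPM. Efna1 in foot shock was higher in the unranked keratin-expressing cells, at 24.3 CPM from 30 UMIs, than in endothelial-like cells, at 19.3 CPM. Robo3 and Robo4 lie tail to tail on chromosome 9, at 37415669 to 37433246 (minus strand) and 37401897 to 37415115 (plus strand) in the GENCODE M21 models on mm10, 554 bases apart. The neighbours had different highest classes, MHb-like neurons for Robo3 and endothelial-like cells for Robo4.

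Ligands and receptors known to bind each other were then set side by side by their highest class. Of 43 listed pairs, 23 had a stable highest class and at least 50 UMIs for both genes, and in 7 the class was the same. The share expected of unrelated pairs was not computed. These were Sema3c with Nrp1 in endothelial-like cells, Sema5a with Plxnb3 in committed precursor-like cells, Sema5b with Plxna3 in OPC-like cells, Slit2 with Robo1 in MHb-like neurons, and Efna5 with Epha3, Epha4 and Epha5 in thalamus-like neurons. Among the others, Sema7a was endothelial and its receptor Plxnc1 medial. Efnb3 was highest in oligodendrocyte-like cells and its receptors Epha4 and Ephb2 in neurons. Its receptor Ephb1 was highest in committed precursor-like cells (220 and 202 CPM) and second in oligodendrocyte-like cells (133 and 118 CPM). Efnb3 was in turn second in committed precursor-like cells, at 258 and 234 CPM. Of the ranked classes, Efna1 with Epha2 and Efnb2 with Ephb4 were both highest in endothelial-like cells in both libraries. They were left out because Epha2 (21 UMIs) and Ephb4 (40 UMIs) fell below the minimum.

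The second comparison asks whether guidance genes differed after foot shock within a class. A member was called at a ratio of foot shock to control of at least 1.5-fold either way, with at least 20 UMIs over both libraries. In LHb-like neurons 6 of 52 tested members were called, 11.5%, against 9.53% of all genes tested. Of these, 1 was higher in foot shock, against a background of 3.47%, and 5 were lower, against 6.06%. The members' share was thus near the background, and 4 of the 6 had an interval that did not hold 1.

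Sema3d was the member higher in LHb-like neurons after foot shock, with 18.5 and 42.6 CPM, 2.30-fold (1.72 to 3.09). Its main subcluster LHb 7 made up 5.44% of LHb-like cells in control and 11.0% in foot shock. Within LHb 7 the ratio was 1.11 (0.76 to 1.64), within LHb 1 2.56 (1.41 to 4.85) and within LHb 4 2.58 (1.07 to 6.85). With the subclusters weighted equally in both libraries, the log2 ratio of Sema3d went from 1.20 to 0.57, just under the threshold.

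Sema5a was lower, with 77.1 and 49.7 CPM, or 0.64-fold (0.53 to 0.78). LHb 3, where it is highest, went from 28.0% to 14.4% of LHb-like cells, and within LHb 3 the ratio was 0.92 (0.70 to 1.21). In the other subclusters with enough UMIs for a ratio it was 0.50 (0.21 to 1.09) in LHb 4, 0.80 (0.39 to 1.62) in LHb 1, 0.88 (0.51 to 1.51) in LHb 5 and 1.28 (0.59 to 2.88) in LHb 6. With equal weights its log2 ratio went from -0.63 to -0.17. Nrp1 had 71.5 and 45.5 CPM, or 0.64-fold (0.52 to 0.78), and its log2 ratio with equal weights was -0.57. Within subclusters the ratio of Nrp1 was 0.49 (0.32 to 0.73) in LHb 1, 0.38 (0.14 to 0.89) in LHb 8 and 0.96 (0.59 to 1.52) in LHb 3, and it was 0.62 to 0.80 in LHb 4, LHb 5 and LHb 6 with intervals that held 1. Sema3f, Dcc and Slit1 were 0.58-fold to 0.64-fold from 33 to 99 UMIs over both libraries. With equal weights, Sema3f alone of the 6 stayed past 1.5-fold, at a log2 ratio of -0.64.

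**Figure D4:**
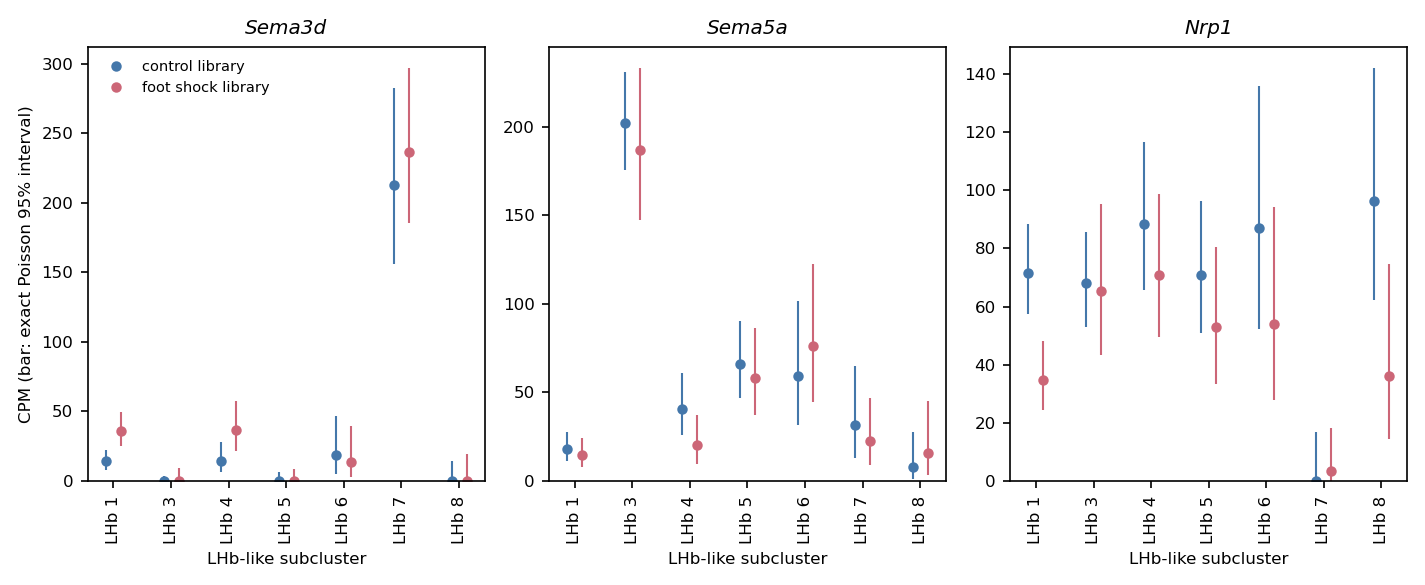
CPM of Sema3d, Sema5a and Nrp1 in each LHb-like subcluster, with blue points for the control and red points for the foot shock library and bars for exact Poisson 95% intervals. Sema3d in LHb 7 and Sema5a in LHb 3 overlap between the libraries, whereas the intervals of Nrp1 in LHb 1, around 71.7 and 34.9 CPM, lie apart.

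In MHb-like neurons 8 of 48 tested members were called, 16.7%, against 7.84% of all genes tested. The interval held 1 for 5 of the 8. Nrp1, Sema3b and Unc5a were higher in foot shock, against a background of 3.18%, and Sema4c, Sema3c, Plxna4, Ephb6 and Epha6 were lower, against 4.66%. All 8 were at most 11.9 CPM in either library, and Nrp1, Sema3b, Plxna4 and Ephb6 were below their level in free RNA in both. Unc5a had 7.76 and 11.8 CPM, or 1.52-fold (1.01 to 2.32), and Plxna4 at 11.9 and 7.77 CPM, 0.65 (0.43 to 0.98), where free RNA held 13.9 and 9.59 CPM of Plxna4. Of the 6 members called for MHb-like neurons between the parts, Epha6 was thus the one past 1.5-fold, at 0.65 (0.34 to 1.22) from 26 and 19 UMIs. The ratio was 1.02 for Nrp2, 0.99 for Robo3, 0.93 for Sema3e, 0.91 for Epha8 and 0.85 (0.78 to 0.93) for Sema5a. Within MHb 1, Sema5a had 428 and 292 CPM, or 0.68-fold (0.61 to 0.76), while in MHb 2, MHb 3 and MHb 5 it was 1.04 to 1.12.

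**Figure D5:**
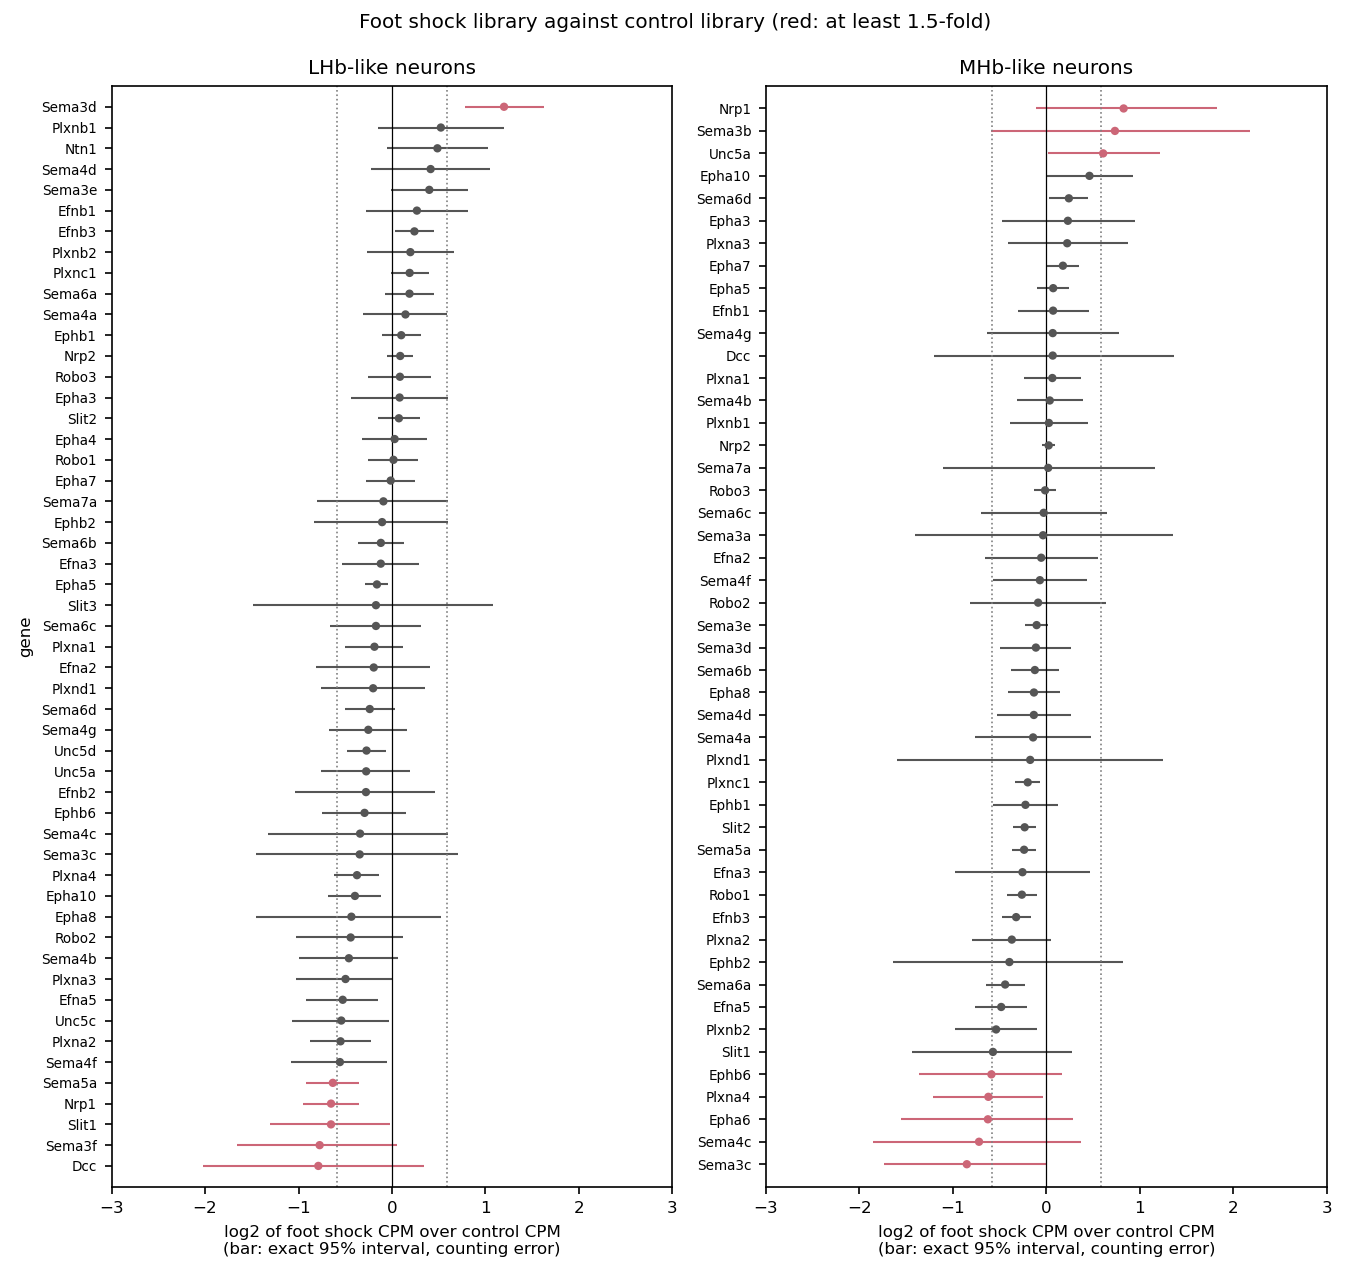
Log2 ratio of the foot shock over the control library for the tested members in LHb-like (52) and MHb-like (48) neurons. Bars are exact 95% intervals for counting error, red marks members at least 1.5-fold apart, and dotted lines mark 1.5-fold. In LHb-like neurons Sema3d lies apart at the top, and in MHb-like neurons most red intervals cross 0.

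In the remaining classes the members' counts were read against a wide background. In thalamus-like neurons 6 of 30 members were called, against 21.9% of all genes, and in other neurons 7 of 44, against 15.9%. The counts were 7 of 12 in astrocyte-like cells (35.3% of all genes), 8 of 15 in OPC-like cells (31.6%), 5 of 15 in committed precursor-like cells (29.7%), 5 of 21 in oligodendrocyte-like cells (19.3%), 3 of 4 in microglia-like cells (41.1%) and 1 of 1 in mural-like cells (31.3%). Over glia and mural cells this made 29 of 68, 10 higher and 19 lower. A pooled share over all genes was not computed. Lower calls also outnumbered higher ones over all genes in each of these classes, except microglia-like cells.

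Nrp2 was the member higher after foot shock in 4 of these glial classes. It was at 94.4 and 293 CPM in microglia-like cells, a ratio of 3.11 (1.71 to 5.89), and at 23.7 and 117 CPM in committed precursor-like cells, 4.93 (2.03 to 13.7). In OPC-like cells it was at 68.0 and 158 CPM and in astrocyte-like cells at 21.5 and 47.2 CPM. The summed level of the 8 MHb markers moved with it, from 155 to 547 CPM in microglia-like cells (3 and 1 of the 8 at 0), from 186 to 420 CPM in committed precursor-like cells (3 and 0 at 0), from 142 to 335 CPM in OPC-like cells (2 and 0 at 0) and from 59.2 to 122 CPM in astrocyte-like cells (0 and 2 at 0). Free RNA held 68.8 and 77.2 CPM of Nrp2. The part of MHb RNA in the Nrp2 difference was not tested.

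In astrocyte-like cells Efnb3 had 44.4 and 157 CPM, or 3.54-fold (2.18 to 5.80), and Sema6a at 10.8 and 55.1 CPM, 5.11 (2.00 to 14.1). The 6 oligodendrocyte markers in the same cells summed to 381 and 2632 CPM, with none of the 6 at 0 in either library, and the part of oligodendrocyte RNA in these differences was not tested. Sema4b and Sema6d, both high in astrocyte-like cells, were lower in foot shock, at 0.56 (0.36 to 0.84) and 0.48 (0.29 to 0.75), while the 6 astrocyte markers summed to 7120 and 5783 CPM. Unc5b in committed precursor-like cells went from 122 to 31.9 CPM, 0.26 (0.09 to 0.63), from 36 and 6 UMIs, and Sema4d in microglia-like cells from 122 to 39.7 CPM on 22 and 5 UMIs. In the same committed precursor-like cells the 5 neuron markers summed to 546 and 3448 CPM and the 4 committed precursor markers to 4514 and 4091 CPM, with 0 of either list at 0. In microglia-like cells the neuron markers summed to 1260 and 5924 CPM and the 6 microglia markers to 10583 and 7011 CPM, again with 0 at 0. The part of these shifts in the differences of Unc5b and Sema4d was not tested.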

How the data were processed

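Droplet libraries (10x 3′ version 2 chemistry, per the labels' protocols) were made from 1 control and 1 foot shock pool. Cell Ranger 2 and the mm10 build were used, per the submitters' processing notes. The deposited count values are unnormalized UMIs for each gene in each barcode, with the annotation release not given in the sources used here. Of 28692 gene identifiers, 28339 occur in GENCODE M21, from which positions were taken, and promoter windows come from RefSeq on GRCm38.p6.

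Cells were barcodes of 1000 UMIs or more with 500 to 6000 genes and at most 20% mitochondrial UMIs. Scrublet in scanpy 1.11.5, at an expected rate of 0.08, removed 249 control doublets (4.85%) and 69 foot shock doublets (1.43%). Both libraries were clustered together on 2000 variable genes, without members, other guidance genes or markers, with 30 components, 15 neighbours and Leiden resolution 1 (0.5 for subclusters). A class needed 3 of its markers in at least 10% of cells, each at no less than 33.3% of its level in the highest cluster. For habenula names that share was 20% and Pou4f1 had to reach 1 count per 10000. These habenula thresholds, the rule for mixed clusters (11 and 56 cells left out) and the minimum of 30 cells for a level were set after the data were seen. The members, lists and tests were chosen with earlier results of these data known.

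UMIs were summed per class or subcluster and library and scaled to CPM. Levels carry exact Poisson and ratios exact conditional binomial 95% intervals, checked on simulated counts. Foot shock was compared with control in classes that both libraries filled with at least 50 cells. By the naming rule, any member could be named, with up to 5 further guidance genes in each direction per comparison and up to 3 leading genes per subcluster. No test was made, since each group is 1 library. Of 14 alternative settings, 11 were planned and 3 added once results had been seen, and TMM factors came from edgeR 4.0.16.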

Additional observations from a re-analysis of the deposited data

Results flagged for a closer look

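In 3 members the foot shock over control ratio lay on opposite sides of 1 in different classes, beyond the fold used and with intervals that did not hold 1. The difference between the classes was not tested. Efnb3 was at a ratio of 0.344 in thalamus-like neurons (7 UMIs in foot shock) and 3.54 in astrocyte-like cells. Epha5 was at 0.658 in OPC-like cells, 2.19 in astrocyte-like cells and 2.17 in oligodendrocyte-like cells, where its level was below that in free RNA in both libraries. Sema6a was at 0.397 in other neurons and 5.11 in astrocyte-like cells. Neuron markers summed to 683 and 1995 CPM in astrocyte-like cells and to 377 and 765 CPM in oligodendrocyte-like cells. In OPC-like cells, where Epha5 was lower, they summed to 4615 and 7069 CPM. Oligodendrocyte markers summed to 381 and 2632 CPM in astrocyte-like cells. The part of RNA from other classes in these ratios was not tested.

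No comparison used the keratin-expressing cells, which the control library lacked. There 2 members were higher than in every ranked class of either library. Macrophage, fibroblast and ependymal cells were not ranked. Sema3b, a secreted semaphorin, was at 89.2 CPM from 110 UMIs, and Efna4, an ephrin, at 23.5 CPM from 29 UMIs. The highest level in the classes compared was 12.2 CPM for Sema3b and 1.71 CPM for Efna4.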

How the results depend on the processing

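No ratio that was followed changed direction under those of the 14 alternatives that were run for it. Ratios were followed only for members called between MHb-like and LHb-like neurons, or for foot shock within these classes. Ratios between subclusters, in glia and of uncalled members, and the highest classes, were not followed. TMM scaling was not run for the subcluster counts, equal weighting of subclusters was run for foot shock in LHb-like and MHb-like neurons alone, and the settings that left out subclusters do not apply to glia and mural cells. Of 115 counts of called members, 93 stayed within 1.5 times the main count. Between MHb-like and LHb-like neurons the 29 calls became 19 with a UMI minimum 4 times higher (14 of the 23 lateral ones) and 19 with folds of 3 and 2 (15 lateral), and the 29 of the other guidance genes became 17 and 19. The same settings gave 10 and 5 of 22 calls between lateral subclusters, 2 and 0 of 8 for foot shock in MHb-like neurons, and 4 and 14 of 29 in glia and mural cells. The higher UMI minimum also gave 9 of 15 between medial subclusters. For foot shock in LHb-like neurons the 6 calls became 1 with folds of 3 and 2, 10 with cells of at least 2000 UMIs, 11 without a UMI minimum and 1 with subclusters weighted equally. In MHb-like neurons the 8 became 4 at a finer resolution, 5 with means over cells and 15 without a UMI minimum. In glia and mural cells the 29 became 4 with cells of at least 2000 UMIs and 117 without a UMI minimum. The free RNA correction changed no count by over 1.5 times. Depth limited members in small classes, where 1.5-fold rested on a few UMIs. No paired analysis was possible because each group is 1 library.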
